A study of Mus musculus with 16 samples.

Results

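Myc and its dimer partners are described here by 10 genes: Myc and Mycn, their partner Max, the repressor proteins Mxd1, Mxd3, Mxd4, Mxi1 and Mnt, the related factor Mlx, and Odc1, which encodes ornithine decarboxylase and is a classical target gene of MYC. They were taken by symbol, or by an older name, from the probes of a mouse expression array that measured 22328 named genes, with each gene read by its brightest probe. All 10 were on the array, with 15 probes in total and 1 probe each for 7 of them.

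MYC binds DNA only as a dimer with MAX, most tightly at the E-box CACGTG, and recruits enzymes that open chromatin and release paused RNA polymerase. The MXD proteins, MXI1 and MNT also dimerise with MAX and bind the same sites, but bring repressor complexes, so the factors compete for MAX and for E-boxes. MLX dimerises with some of the MXD proteins and MNT and with the glucose-sensing MondoA and ChREBP. In T cells that meet antigen, MYC is induced quickly and drives cell growth, ribosome production and the metabolic changes of activation.

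The cells were OT-1 T lymphocytes, whose transgenic receptor recognises SIINFEKL, a peptide of ovalbumin, labelled as heterozygous for OT-1 and on a Rag-/- background, so that other antigen receptors are not rearranged. The 4 WT extracts were of this genotype, and the 4 Lck-/- extracts lacked in addition Lck, the kinase of the Src family that acts first when this receptor is engaged. Ages were not given, and the word OFF in the series title is not explained by the labels. All cells came from lymph nodes, were kept ex vivo with 100 nM SIINFEKL for 24 h, and received 100 µg/ml cycloheximide for the last 10 min to hold ribosomes on mRNA. Lysates were separated on sucrose gradients of 10 to 50%, and RNA of fractions 6 to 10 (polysomal, many ribosomes per mRNA) and of fractions 1 to 5 (sub-polysomal, few or none) was compared on 2-colour arrays. A dye-swapped pair of arrays measured each extract, 16 arrays in all. The labels call the extracts biological replicates but name no separate animals or cultures, and the p-values cover only the spread among these samples.

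Per array, 14619 to 50776 probes were well above background for the polysomal pool and 12531 to 30976 for the sub-polysomal pool, and the number of extracts limits the precision. The top polysomal value is 1 array of Lck-/- 1 that stood apart, the next highest being 26643; without Lck-/- 1 the genes called in the polysomal level rose from 1523 to 2424, and Max and Odc1 stayed past the threshold in the sub-polysomal level (adjusted p = 0.0333 and 0.0489). The probe for Lck read 14.70 to 15.17 (log2 intensity, mean of both pools) in WT and 14.04 to 14.38 in Lck-/- extracts, a difference of -0.84 (limma, adjusted p = 0.00367), and whether it lies in the deleted stretch was not given in the sources used here. Of the T cell markers, 9 of the 9 on the array, Cd3e and Cd8a among them, were well above background in both genotypes. In the mean of both pools Cd5 fell by 0.62 (adjusted p = 0.0164) and Thy1 rose by 0.45 (adjusted p = 0.0354). These are 2 of 9 tested, 22.2% beside 20.4% of all genes. Markers of other cells were mostly not: 1 of 8 B cell genes (Cd79b), none of 7 stromal genes, none of 5 NK and of 5 neutrophil genes in WT and 1 of each in Lck-/- (Tyrobp and Ly6g), and 4 of 12 myeloid genes in WT and 3 in Lck-/-. The myeloid genes Csf1r, Itgam, Cd68 and Siglech were above background in at least 1 genotype, while Lyz2, Itgax and Adgre1 were among those above it in neither. Summed myeloid marker intensity was 28900 to 35700 in WT and 31200 to 36100 in Lck-/- extracts. Of 4 myeloid genes tested in the mean of both pools 1 passed, Cd68, which fell by 0.78 (limma, adjusted p = 0.00349). This is 25% beside 20.4% of all genes, and 2 of the 4 differences were below 0. Csf1r differed by 0.27 (adjusted p = 0.528), and in the ratio Siglech rose by 1.15 (adjusted p = 0.0346). The T cell sum was 102000 to 126000 in WT and 120000 to 130000 in Lck-/- extracts. The sums of the B cell, NK, neutrophil and stromal lists ran from 596 to 1350. The lists differ in genes and probes, so these sums are not shares of cells. In WT replicates 1 and 2 the labelled dye-swap pairs were discordant: across genes, the deviations of their log2 ratios correlated at -0.83 and -0.81 within the labelled pairs and at 0.87 and 0.94 when the partners were exchanged, against 0.46 to 0.84 in the other 6 extracts. Results are therefore also given with the partners exchanged and without these extracts. The arrays were on 2 slides. With the partners exchanged, both arrays of WT 1 lie on slide 1 and both of WT 2 on slide 2. A fit on 1 slide would then hold 1 of these extracts by 2 arrays and lack the other. Values by slide below therefore depend on the pairing. Averaging discordant arrays as labelled can also narrow the WT spread behind the SE and p-values. RNA was labelled by volume (1.5 µl), and the ratio of each array was set so that a typical probe reads about 0; before this step WT extracts had a median gene at 1.34 ± 0.30 and Lck-/- extracts one at 0.52 ± 0.26 (log2 ratio, SD over 4 extracts), and every ratio below is relative to that shift. In bulk RNA, fewer cells with an mRNA and less mRNA per cell cannot be told apart.

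The E-box that MYC and its partners bind was present in the promoters of several of the genes themselves. RefSeq promoter windows (build GRCm38.p6, from 250 bases before to 50 after the start site) were found for 9 of the 10 genes. The gene without a window was Myc itself, which was therefore not searched. CACGTG, which reads the same on both strands, occurred in the windows of 4 of these 9 genes, Max, Mxd4, Mnt and Mlx, compared with 8.09% of 27025 genes with a window. The variant CACGCG, searched on both strands (CGCGTG on the other), occurred in that of Odc1 alone, at 2 places, compared with 10.5% of all genes. The windows of the 9 genes held 55 to 78% G and C, beside a median of 52.7% over all windows. The shares over all genes were not matched for this, so they are not a like comparison for motifs rich in G and C. The stretches of 60 bases that hold these matches are shown on the gene's strand with the motif in capitals, because the E-box is the sequence these dimers bind. The match in Max lies across the start site, beginning at -3, that in Mlx at -40, that in Mnt at -123 and that in Mxd4 at -219, while those in Odc1 begin at -180 and -101. A match describes letters, and binding was not measured.
Max, chr12:76962243-76962302, minus strand: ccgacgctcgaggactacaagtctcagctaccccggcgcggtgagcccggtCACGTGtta
Mlx, chr11:101087223-101087282, plus strand: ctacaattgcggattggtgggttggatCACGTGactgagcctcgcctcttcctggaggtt
Mnt, chr11:74830774-74830833, plus strand: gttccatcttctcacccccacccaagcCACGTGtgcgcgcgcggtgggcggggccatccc
Mxd4, chr5:34187897-34187956, minus strand: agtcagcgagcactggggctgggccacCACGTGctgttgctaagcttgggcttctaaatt
Odc1, chr12:17544666-17544725, plus strand: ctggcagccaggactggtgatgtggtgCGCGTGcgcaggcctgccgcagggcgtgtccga
Odc1, chr12:17544745-17544804, plus strand: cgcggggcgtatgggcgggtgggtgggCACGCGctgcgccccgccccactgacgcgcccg

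In these cells Myc, Max, Mnt, Mxd1, Mlx and Odc1 were well above background in both pools on all 8 arrays of each genotype. The other 4 were dim. Mycn passed on 3 of 8 polysomal arrays of WT and 1 of 8 of Lck-/-, and on none of the sub-polysomal arrays. Mxi1 passed on 1 polysomal array in all, of Lck-/-. Mxd3 passed on 5 of 8 polysomal arrays of WT and 1 of 8 of Lck-/-, and on 4 and 2 of 8 sub-polysomal arrays. Mxd4 passed on 6 and 5 polysomal and on 3 and 6 sub-polysomal arrays, and was tested in the separate pools only. The tests therefore covered 6 of the 10 genes in the ratio and in the mean of both pools and 7 of 10 in each pool, and they say nothing of Mycn, Mxd3 and Mxi1.

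**Figure D1:**
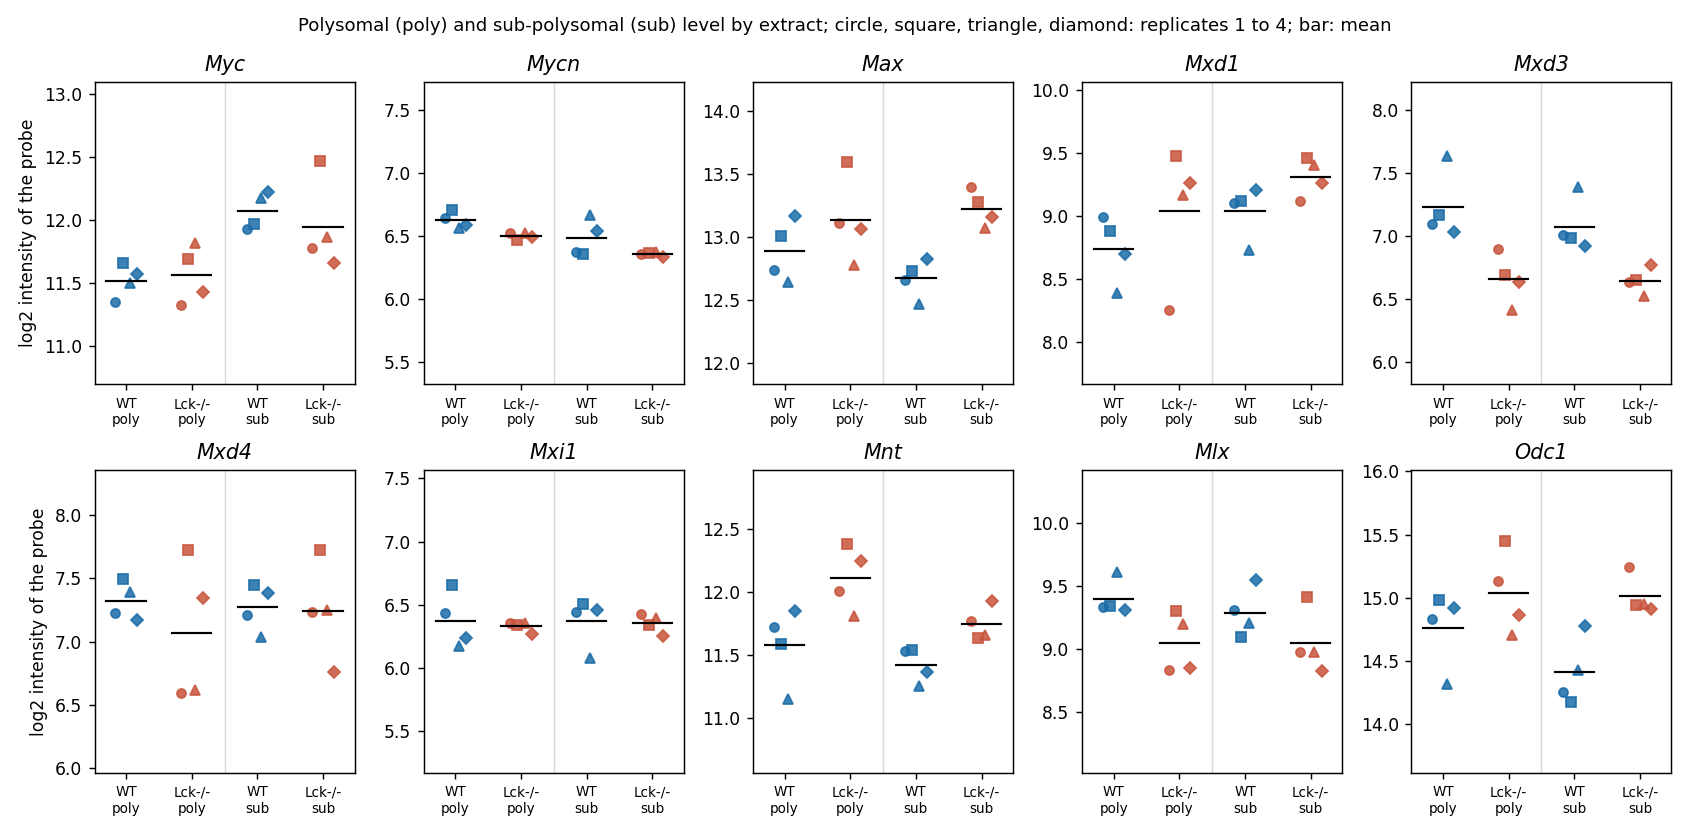
Level of each gene by extract, in log2 intensity of its probe after normalization, in the polysomal (poly) and sub-polysomal (sub) pool of WT (blue) and Lck-/- (red) extracts; symbols mark replicates 1 to 4 and bars the means of 4. Panels share the length but not the position of the axis, since levels of different probes are not comparable. In the sub-polysomal pool all Lck-/- extracts lie above all WT extracts for Max, Odc1 and Mnt, and below them for Mxd3, whose probe was dim. Groups without overlap were found for 25.7% of all genes tested in that pool.

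Of the 7 genes tested in any measure, 2 differed between WT and Lck-/- extracts past the threshold, Max and Odc1, each in the sub-polysomal pool alone among the 4 measures. The level of each pool was computed from the mean of both pools and the ratio, so the measures are not separate readings. Whether the pools changed differently is read by the ratio, which passed for neither (limma, Max -0.31, adjusted p = 0.282, Odc1 -0.33, adjusted p = 0.437). A change particular to the sub-polysomal pool is therefore not shown. In the polysomal over sub-polysomal ratio 0 of 6 passed an adjusted p of 0.05 (limma, Benjamini-Hochberg over 8263 genes), where 3.86% of all genes did (2.81% higher and 1.05% lower in Lck-/-). The unadjusted p was also above 0.05 for all 6, and below it for 1722 of the 8263 genes. In the mean of both pools 0 of 6 passed, where 20.4% of 9073 genes did (8.99% higher, 11.4% lower). An unadjusted p below 0.05 was found for 3 of the 6 and for 3296 of the 9073. In the polysomal level 0 of 7 passed, where 14.8% of 10292 did (5.42% higher, 9.38% lower). The unadjusted p was below 0.05 for 1 of the 7 and for 3207 of the 10292. In the sub-polysomal level 2 of 7 passed, both higher in Lck-/-, where 19.2% of 9703 genes did (8.34% higher, 10.9% lower). The median difference over the genes tested was -0.04 in the ratio, 0.34 in the mean of both pools, 0.25 in the polysomal and 0.27 in the sub-polysomal level, beside -0.04, 0.03, -0.01 and 0.04 over all genes tested. All differences are Lck-/- minus WT in log2. These levels depend on the scaling: the share of called genes that were higher in Lck-/- was 72.7% in the ratio, 36.6% in the polysomal and 43.4% in the sub-polysomal level, but 0.683%, 2.21% and 91.3% when arrays were centred on their median in place of loess. The median of all genes then moved to -0.78, -0.32 and 0.36, and Max and Odc1 differed in the sub-polysomal level by 1.07 and 1.16. In the mean of both pools the share was 44.1%, and 31.8% without any normalization.

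**Figure D2:**
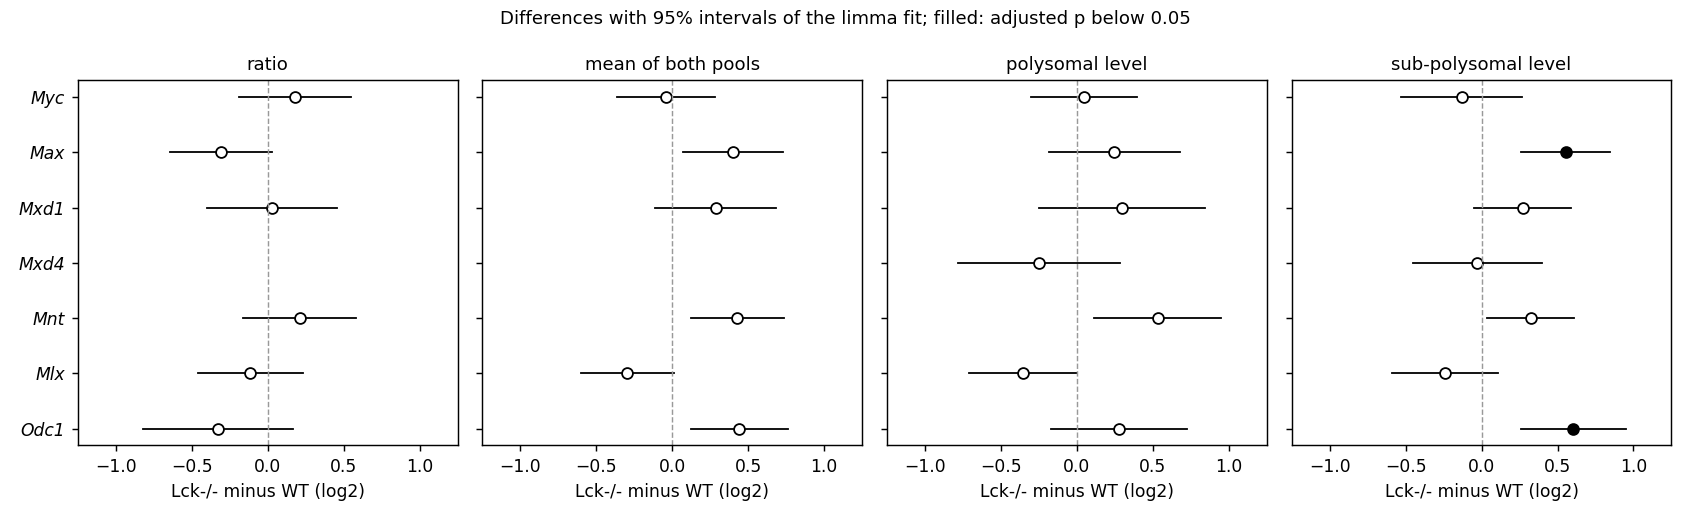
Difference between genotypes (Lck-/- minus WT, log2) for each gene tested, in the ratio, the mean of both pools and each pool, with 95% intervals from the limma fit over 4 and 4 extracts. Filled circles passed an adjusted p of 0.05: Max at 0.55 and Odc1 at 0.60 in the sub-polysomal level.

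Myc encodes the transcription factor itself, and its probe starts at base 1899 of the transcript (build mm9, chr15:61821417-61821476, plus strand). Its mean level over both pools was 11.64, 11.82, 11.84 and 11.90 in the WT extracts and 11.55, 12.08, 11.84 and 11.55 in the Lck-/- extracts. The groups overlapped, and the Lck-/- extracts held both the lowest and the highest values. The difference was -0.04 (SE 0.15, 95% interval -0.36 to 0.28, adjusted p = 0.866). The polysomal level differed by 0.05 (SE 0.16, adjusted p = 0.867) and the sub-polysomal level by -0.13 (SE 0.18, adjusted p = 0.630). Within the slides, the mean level differed by -0.06 on slide 1 and by -0.02 on slide 2.

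Myc mRNA stood low in the polysomal pool relative to other mRNAs. Its log2 ratio was -0.58, -0.31, -0.68 and -0.65 in WT and -0.46, -0.78, -0.05 and -0.22 in Lck-/- extracts. All 8 values were below 0, the level of a typical probe, and the groups overlapped. The WT extracts averaged -0.56 ± 0.17 and the Lck-/- extracts -0.38 ± 0.31 (SD, n = 4 each), at percentiles 16.9 and 23.2 of the genes tested. In the authors' deposited table of log2 ratios, centred here on the median gene of each column, the means were -0.51 and -0.39. With the dye-swap partners of WT 1 and WT 2 exchanged, these extracts read -1.09 and 0.19, so the sign then differed among WT extracts and their SD was 0.54. The genotypes differed by 0.18 (SE 0.17, 95% interval -0.19 to 0.55, adjusted p = 0.578), with 0.52 on slide 1 and -0.16 on slide 2. Without loess the difference was -0.76 with median centring, where the median of all genes was -0.78.

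**Figure D3:**
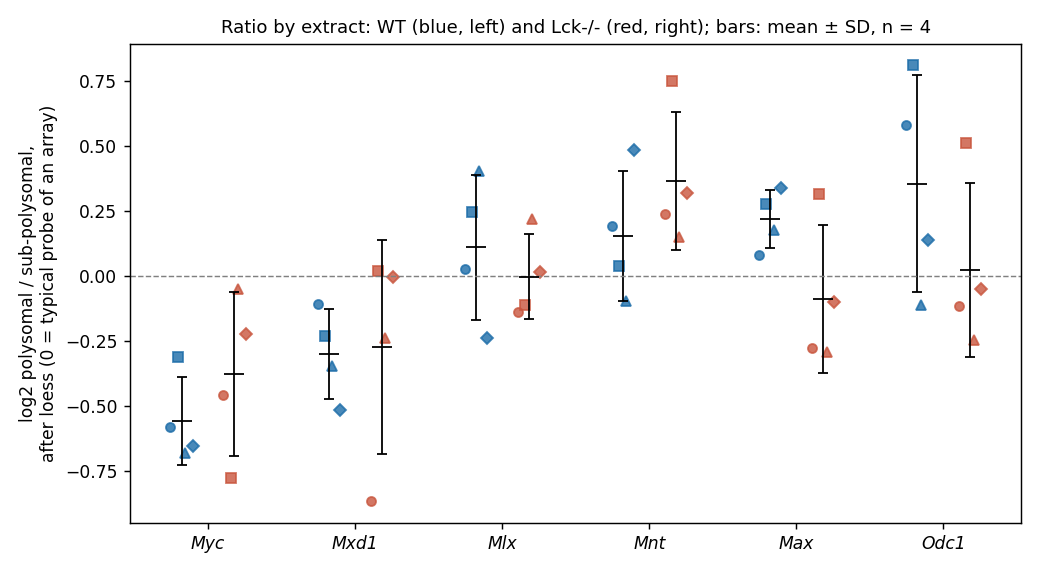
Log2 ratio of polysomal over sub-polysomal RNA after loess, relative to a typical probe at 0, for the 6 genes measured in both pools; points are extracts of WT (blue, left) and Lck-/- (red, right) and bars the mean ± SD of 4. Myc lies below 0 in all 8 extracts as labelled, and the genotypes overlap for every gene.

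Mycn, the paralogue of Myc used mainly in developing tissues, read 6.51 to 6.62 in WT and 6.42 to 6.45 in Lck-/- extracts (mean of both pools). These groups did not overlap, as for 25.7% of all genes tested in the mean. The probe was at background on most arrays, and it was left out of the main tests. When dim probes were let in, the difference in the mean was -0.12 (SE 0.07, adjusted p = 0.356).

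Max encodes the obligate partner, needed by activators and repressors alike (build mm9, chr12:78038272-78038331, minus strand). Its sub-polysomal level was 12.66, 12.73, 12.47 and 12.83 in WT and 13.39, 13.28, 13.07 and 13.16 in Lck-/- extracts. Every Lck-/- extract lay above every WT extract, as for 25.7% of all genes tested in that pool in either direction. The level rose by 0.55 (SE 0.13, 95% interval 0.26 to 0.85), or 1.47-fold (limma, adjusted p = 0.0167). It was 0.69 (adjusted p = 0.0123) on slide 1 and 0.42 (adjusted p = 0.268) on slide 2, fits that depend on the pairing of WT 1 and 2. With the dye-swap partners of WT 1 and 2 exchanged the adjusted p was 0.0519, and without these extracts the difference was 0.58 (adjusted p = 0.0720). Over all other settings the difference stayed positive, from 0.42 to 1.07, with adjusted p from 0.00361 to 0.268.

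The other measures of Max did not pass. Its polysomal level was 12.74, 13.01, 12.65 and 13.17 in WT and 13.12, 13.60, 12.78 and 13.06 in Lck-/- extracts, and the groups overlapped (difference 0.25, SE 0.20, adjusted p = 0.422). The mean of both pools was 12.78 ± 0.19 in WT and 13.18 ± 0.22 in Lck-/- (SD, n = 4), a difference of 0.40 (SE 0.15, adjusted p = 0.0781). The ratio was 0.08, 0.28, 0.18 and 0.34 in WT and -0.28, 0.32, -0.29 and -0.10 in Lck-/- extracts. It was positive in all 4 WT extracts and negative in 3 of 4 Lck-/- extracts, and the difference of -0.31 (SE 0.15, 95% interval -0.64 to 0.03) had an adjusted p of 0.282. On slide 1 that difference was -0.74 and on slide 2 it was 0.13. With the partners exchanged, WT 1 and WT 2 read 1.03 and -0.68, so the agreement among WT extracts rests on the labelled pairs. The WT SD of the ratio was 0.11 as labelled and 0.70 with the partners exchanged.

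Among the repressors, Mnt, which is expressed widely and antagonises MYC at shared E-boxes, came nearest to the threshold among those that did not pass (build mm9, chr11:74658915-74658974, plus strand). Its mean level over both pools was 11.63, 11.56, 11.20 and 11.61 in WT and 11.89, 12.00, 11.73 and 12.09 in Lck-/- extracts. All Lck-/- extracts lay above all WT extracts, as for 25.7% of all genes tested in either direction. The difference was 0.43 (SE 0.14, 95% interval 0.12 to 0.73, adjusted p = 0.0513), 1.34-fold. It crossed the threshold in 3 of 22 other settings, over which the adjusted p ran from 0.0203 to 0.192. With the dye-swap partners exchanged, WT 1 read 11.74 and the groups overlapped.

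In the single pools, Mnt differed by 0.53 (SE 0.19, adjusted p = 0.0810) in the polysomal and by 0.32 (SE 0.13, adjusted p = 0.103) in the sub-polysomal level. In the latter Mnt showed no overlap of the groups, as did 25.7% of all genes tested. Its ratio averaged 0.15 ± 0.25 over WT extracts and 0.36 ± 0.27 over Lck-/- extracts (SD, n = 4 each), a difference of 0.21 (SE 0.17, adjusted p = 0.517).

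Mxd1, a repressor that rises as cells leave the cell cycle, read 8.56 to 9.05 in WT and 8.69, 9.47, 9.29 and 9.26 in Lck-/- extracts (mean of both pools). Lck-/- 1 lay within the WT values and the other 3 above them. The 2 arrays of Lck-/- 1 disagreed, at 7.60 and 9.77. The lower value is from the array that stood apart with 50776 polysomal probes above background. The difference was 0.28 (SE 0.18, adjusted p = 0.280). Without Lck-/- 1 it was 0.45 (adjusted p = 0.0493), and the range of adjusted p over the other settings was 0.0493 to 0.786. The polysomal level differed by 0.30 (adjusted p = 0.447), and by 0.56 without Lck-/- 1 (adjusted p = 0.0403). In the ratio the difference was 0.03 (SE 0.19, adjusted p = 0.956), with Lck-/- 1 at -0.86 and the other Lck-/- extracts at -0.24 to 0.02. A dimmer probe of Mxd1, downstream on the same transcript with no shared bases, gave 0.44 (adjusted p = 0.0284) in the sub-polysomal level, where the brightest probe gave 0.27 (adjusted p = 0.197). In that pool the dimmer probe was well above background on 8 of 8 Lck-/- arrays but on 5 of 8 WT arrays. This is short of the 6 asked of a brightest probe, so its WT level lay near background.

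Mxd3, linked to proliferating cells, was not tested because its probe was dim. Its mean level was 7.05, 7.07, 7.51 and 6.97 in WT and 6.76, 6.67, 6.47 and 6.70 in Lck-/- extracts. All Lck-/- extracts lay below all WT extracts in the mean and in each pool, and the means differed by -0.50; groups without overlap were found for 25.7% of all genes tested in the mean, 22.6% in the polysomal and 25.7% in the sub-polysomal level. With the dye-swap partners exchanged, the sub-polysomal groups overlapped. When dim probes were let in, the adjusted p was 0.0434 for the mean, 0.0666 for the polysomal and 0.0578 for the sub-polysomal level. Mxd4 did not pass in the polysomal (-0.25, SE 0.24, adjusted p = 0.518) or sub-polysomal level (-0.03, SE 0.19, adjusted p = 0.928). Mxi1 read 6.37 ± 0.19 in WT and 6.34 ± 0.06 in Lck-/- (SD, n = 4), at background in both.

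Mlx, the partner of the glucose-sensing factors, had the most negative difference among the genes tested in the mean of both pools and in each pool (build mm9, chr11:100952426-100952485, plus strand). Its polysomal level was 9.33, 9.34, 9.61 and 9.31 in WT and 8.84, 9.30, 9.20 and 8.85 in Lck-/- extracts. The groups did not overlap, as for 22.6% of all genes tested, but Lck-/- 2 and WT 4 were nearly equal. With the dye-swap partners exchanged, WT 1 read 9.27 and the groups overlapped. The difference was -0.35 (SE 0.16, 95% interval -0.71 to 0.00, adjusted p = 0.162). The mean of both pools differed by -0.30 (SE 0.14, adjusted p = 0.148) and the ratio by -0.11 (SE 0.16, adjusted p = 0.727).

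Odc1 makes the enzyme that commits ornithine to polyamine synthesis, and its transcription responds to MYC. By its brightest probe (build mm9, chr12:17557831-17557890, plus strand) the sub-polysomal level was 14.25, 14.17, 14.42 and 14.78 in WT and 15.24, 14.94, 14.95 and 14.91 in Lck-/- extracts. All Lck-/- extracts lay above all WT extracts, and groups without overlap were found for 25.7% of all genes tested in that pool. The level rose by 0.60 (SE 0.16, 95% interval 0.26 to 0.95), or 1.52-fold (limma, adjusted p = 0.0231). It was 0.68 (adjusted p = 0.0300) on slide 1 and 0.53 (adjusted p = 0.124) on slide 2, and with the dye-swap partners exchanged the adjusted p was 0.0462. Without both WT 1 and WT 2 the difference was 0.41 (adjusted p = 0.168). The call was also lost without WT 1, WT 2, WT 3 or Lck-/- 3 alone, with adjusted p of 0.0512, 0.0706, 0.0510 and 0.0568. Over all other settings the adjusted p ran from 0.00429 to 0.800.

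The remaining measures of Odc1 by this probe did not pass. The polysomal level was 14.83, 14.98, 14.31 and 14.92 in WT and 15.13, 15.45, 14.71 and 14.86 in Lck-/- extracts, with overlap (difference 0.27, SE 0.21, adjusted p = 0.390). The mean of both pools differed by 0.44 (SE 0.15, adjusted p = 0.0533). The ratio was 0.58, 0.81, -0.11 and 0.14 in WT and -0.12, 0.51, -0.25 and -0.05 in Lck-/- extracts, a difference of -0.33 (SE 0.22, adjusted p = 0.437). The WT SD of this ratio was 0.42 as labelled and 0.56 with the dye-swap partners exchanged.

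The rise of Odc1 depended on the probe. The gene had 4 probes, of which 3 overlap one another and 1 (A_52_P436238, build mm9, chr12:17554799-17554858, plus strand) lies upstream, from base 729 of the transcript. It is shown because it shares no bases with the brightest probe and reads the same gene differently.
A_52_P436238: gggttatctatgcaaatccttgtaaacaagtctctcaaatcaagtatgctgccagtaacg
By this probe the sub-polysomal level was 11.14, 10.85, 11.54 and 11.30 in WT and 11.60, 11.55, 11.08 and 10.97 in Lck-/- extracts, and the groups overlapped. The difference was 0.09 (SE 0.19, adjusted p = 0.756). Another probe, which shares 22 genome bases with the brightest one, gave 0.10 (SE 0.25, adjusted p = 0.800). The last shares 55 and gave 0.47 (SE 0.16, adjusted p = 0.0620) with no overlap of the groups, as for 25.7% of all genes tested. By that probe WT 4 at 12.73 and Lck-/- 1 at 12.75 were nearly equal. Over both pools the upstream probe gave -0.05 and the other two -0.20 and 0.27, so the sign of the overall level differed between probes. The ratio was lower in Lck-/- by all 4 probes, at -0.33, -0.28, -0.60 and -0.39, and passed by none of them. Which reading follows the amount of full-length mRNA was not tested.

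**Figure D4:**
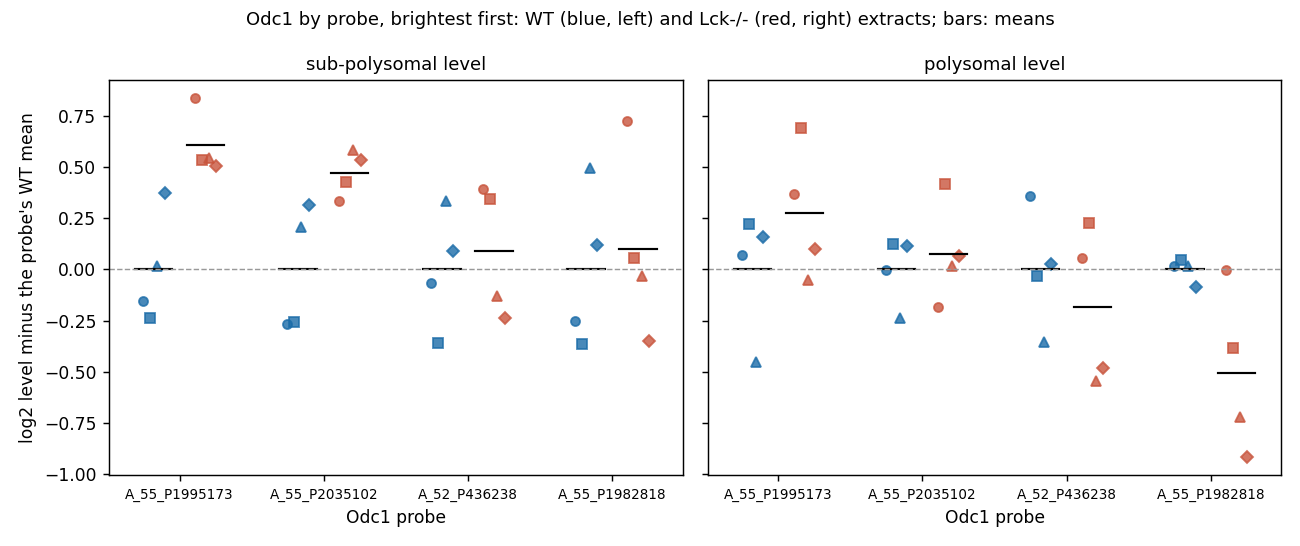
Odc1 by each of its 4 probes, brightest at the left, as log2 level minus the mean of that probe in WT, in the sub-polysomal and polysomal pool; points are extracts of WT (blue, left) and Lck-/- (red, right) and bars the means. The first 2 probes, which overlap, show all Lck-/- extracts above all WT extracts in the sub-polysomal pool, and the other 2 do not. Groups without overlap were found for 25.7% of all genes tested in that pool.

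As a description over the 16 levels (polysomal and sub-polysomal in 8 extracts, which share arrays and genotype), the level of Odc1 followed that of Max most closely among these genes, with Pearson r = 0.88, while Myc had r = -0.11 with Max and -0.24 with Odc1. Max and Mnt had r = 0.73, and Mnt and Mlx r = -0.56. Among 8630 genes, those most like Myc were Plpbp (r = 0.95), Pcgf6 (0.92), Ubxn2b (0.91), Mtmr2 (0.89) and Zdhhc13 (0.89). Those most like Odc1 were Parl (r = 0.92), Mcrip1, Commd7 and Eaf1 (0.90 each) and Tmed2 (0.89).

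The other genes of the network were the remaining E-box factors and the repressor proteins that MXD and MNT recruit. None of the 10 tested passed in the mean of both pools (limma, median 0.11), beside 20.4% of all genes. An unadjusted p below 0.05 was found for 4 of them, beside 3296 of all 9073 genes. None of 9 passed in the ratio, beside 3.86% of all genes, and 2 had an unadjusted p below 0.05, beside 1722 of 8263. In the sub-polysomal level 2 of 11 rose (18.2%, beside 19.2% of all genes in either direction), both named after their values were seen: Tfe3, an E-box factor of lysosomal genes, by 0.49 (SE 0.14, adjusted p = 0.0328), and Sin3a, the scaffold of the repressor complex, by 0.50 (SE 0.16, adjusted p = 0.0444). The genes of the partners of MLX did not pass in that pool: Mlxip, which encodes MondoA, at -0.05 (adjusted p = 0.880) and Mlxipl, which encodes ChREBP, at -0.26 (adjusted p = 0.385).

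Among the cofactors through which MYC acts on chromatin and polymerase, the share that passed was close to that of all genes. In the mean of both pools 3 of 16 rose and none fell, 18.8% beside 20.4% of all genes. The median was 0.26, with 4 of the 16 differences below 0. Those that rose were Wdr5, a subunit of histone methyltransferases that binds MYC, by 0.60 (SE 0.14, adjusted p = 0.0139), the acetyltransferase gene Ep300 by 0.54 (SE 0.15, adjusted p = 0.0282) and the polymerase kinase gene Cdk9 by 0.47 (SE 0.15, adjusted p = 0.0447). Wdr5 passed in 19 of 22 other settings, Ep300 in 15 and Cdk9 in 4. In the ratio none of 16 passed by limma, beside 3.86% of all genes. An unadjusted p below 0.05 was found for 4 of the 16, beside 1722 of all 8263 genes.

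The genes that control how long MYC protein lasts moved in both directions. In the mean of both pools 3 of 13 rose and 4 fell, 53.8% beside 20.4% of all genes. The list was chosen with earlier results of these data known, so these shares describe it and do not test it. Plk1, a mitotic kinase, fell by 1.63 (SE 0.29, adjusted p = 0.00439), and Aurka, a mitotic kinase that protects MYC proteins from degradation, fell by 0.91 (SE 0.19, adjusted p = 0.00803). Ppp2r1a, the scaffold of protein phosphatase 2A, fell by 0.71 (SE 0.15, adjusted p = 0.00900). Its ratio, the only 1 of 13 in this list to pass (7.69% beside 3.86% of all genes), fell by 0.59 (SE 0.11, adjusted p = 0.0184). That ratio did not pass with the dye-swap partners exchanged (adjusted p = 0.490). Usp36, a nucleolar deubiquitinase of MYC, rose by 0.74 (SE 0.13, adjusted p = 0.00462). Fbxw7, which encodes the ubiquitin ligase subunit that recognises phosphorylated MYC and was named after its value was seen, rose by 0.79 (adjusted p = 0.0237). Plk1 and Usp36 passed in all 22 other settings, and the levels of Aurka and Ppp2r1a in 21.

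Genes that MYC is known to induce, mainly for ribosome production and metabolism, also moved both ways. Of 49 tested in the mean of both pools 7 rose and 3 fell, 20.4% of this list beside the same 20.4% of all genes, with a median of 0.23. Fbl, the methyltransferase of ribosomal RNA, rose by 0.88 (SE 0.18, adjusted p = 0.00849), Tcof1, a nucleolar factor, by 0.67 (SE 0.16, adjusted p = 0.0172) and Pa2g4 by 0.65 (SE 0.14, adjusted p = 0.0103). Tfrc, the transferrin receptor, fell by 0.53 (SE 0.14, adjusted p = 0.0236). In the ratio none of 48 rose and 2 fell, 4.17% of this list beside 3.86% of all genes. Eif5a, the translation factor that carries hypusine, fell by 0.65 (SE 0.11, adjusted p = 0.0135), and Nop16, a nucleolar protein, by 0.54 (SE 0.13, adjusted p = 0.0477). With the dye-swap partners exchanged neither passed (adjusted p = 0.113 and 0.308), and over the other settings Eif5a passed in 15 of 24 and Nop16 in 7 of 24.

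Of the genes MYC is known to repress, 2 of 9 rose and 3 fell in the mean of both pools, 55.6% beside 20.4% of all genes. This list too was chosen with earlier results known, so the shares do not test it. Gadd45b, a stress-induced gene, rose by 1.22 (SE 0.19, adjusted p = 0.00236) and passed in all 22 other settings. Ndrg1 fell by 1.02 (SE 0.23, adjusted p = 0.0115), Ndrg2 by 0.95 (SE 0.21, adjusted p = 0.0102) and Cdkn2c, an inhibitor of cyclin-dependent kinases, by 0.94 (SE 0.17, adjusted p = 0.00491). In the ratio 1 of 9 passed, 11.1% beside 3.86% of all genes. This was Dusp2, a phosphatase of MAP kinases, higher by 0.84 after loess (SE 0.20, adjusted p = 0.0473) but lower by the settings that keep the overall shift, at -0.26 with median centring.

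Of the 15 polyamine genes around Odc1 tested in the mean of both pools, 1 rose and 1 fell, 13.3% beside 20.4% of all genes, with a median of 0.06. Atp13a3, a polyamine transporter, rose by 0.84 (SE 0.19, adjusted p = 0.0120), and Smox, which oxidises spermine, fell by 0.76 (SE 0.18, adjusted p = 0.0161). The synthases Srm and Sms differed by -0.37 (adjusted p = 0.263) and 0.34 (adjusted p = 0.111). Oaz1, the antizyme that targets ornithine decarboxylase for degradation, differed by 0.03 (adjusted p = 0.928), and Azin1, which blocks antizyme, by 0.48 (adjusted p = 0.0681).

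**Figure D5:**
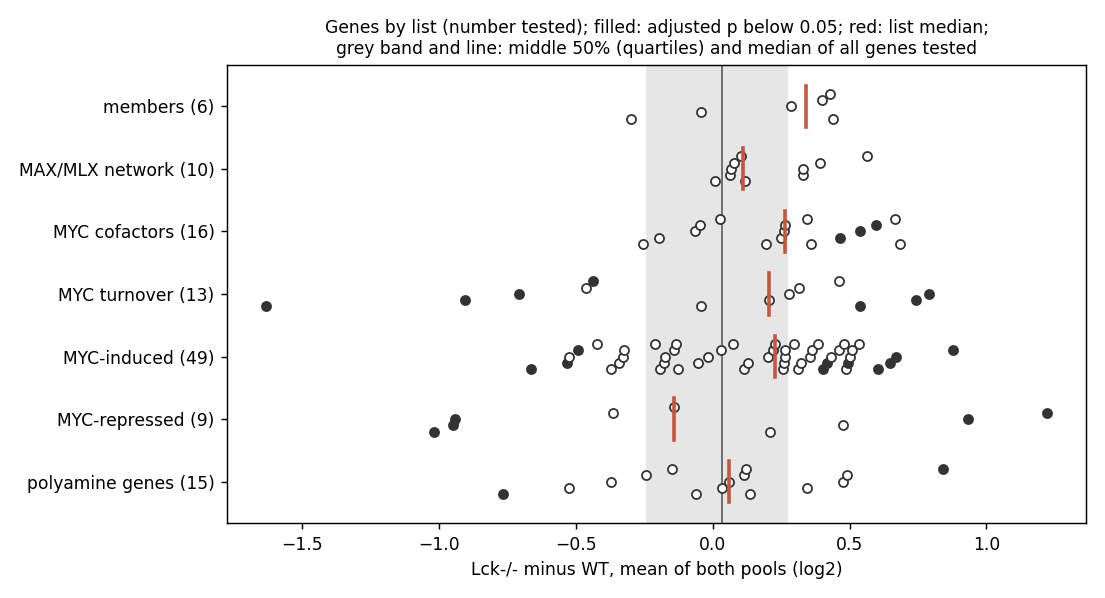
Difference between genotypes in the mean of both pools (Lck-/- minus WT, log2) for the genes tested of each list, with the number tested in brackets; filled points passed an adjusted p of 0.05, red bars are list medians, and the grey band and line are the span between the quartiles and the median of all 9073 genes tested. None of the 6 genes of the MYC and MAX set is filled, while turnover and MYC-repressed genes include filled points on both sides of 0.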

How the data were processed

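The deposited values of each spot and its local background are intensity readings from Feature Extraction 10.7.3.1, with probes placed on mm9, per the file headers. The deposited flags, of unit other, mark spots well above background and outliers. The authors' deposited table holds normalised log2 ratios, and limma, without a version, is named in the submitters' processing notes. Each array had 62976 spots, and 31381 probes were matched to RefSeq genes.

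The processing here used limma 3.58.1 under R 4.3.3: normexp with an offset of 50, loess within arrays, and Aquantile for the mean of both pools. The levels of single pools were computed from that mean and the ratio. Both arrays of each extract were averaged to 1 value, giving n = 4 per genotype. A gene was tested when its brightest probe was well above background on at least 6 of 8 arrays, in both genotypes for the ratio and in at least 1 for levels. limma's moderated test was adjusted by Benjamini-Hochberg over all genes tested, with a threshold of 0.05. SE is the standard error of this fit. The fit was tested on simulated data.

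All 10 members are described, by their brightest probe, with the up to 4 smallest p among genes that passed in each other list, and the 5 genes most like Myc and Odc1. Members, lists and settings were chosen with earlier results of these data known. The settings tried were other background corrections and normalizations, filters and probe summaries, single dye orientations and slides, slide and dye terms, left-out extracts, the replicate number as a block, exchanged dye swaps, and the authors' ratios. Other probes in place of the brightest were added after seeing the data.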

Additional observations from a re-analysis of the deposited data

Results flagged for a closer look

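In 3 of 52 groups of 4 extracts (each gene tested, measure and genotype), 1 extract lay far from the other 3 relative to the range of the group, by Dixon's criterion for 4 samples, which chance meets in about 1 in 20 groups. For Mnt in the mean of both pools, WT 3 read 11.20 and the other WT extracts 11.56 to 11.63. Without it the difference between genotypes was 0.33 (limma, adjusted p = 0.124). For Mlx in the polysomal level, WT 3 read 9.61 and the others 9.31 to 9.34. For Odc1 in the sub-polysomal level, Lck-/- 1 read 15.24 and the others 14.91 to 14.95.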

How the results depend on the processing

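Over the 22 to 27 other settings of each gene and measure, Myc passed in none of the mean, polysomal and sub-polysomal settings. Max in the sub-polysomal level passed in 17 of 22, and Odc1 in 12 of 25, of which 3 are its other probes. Where the overall shift was kept, the ratio turned sign: Myc read -0.76 with median centring, -0.76 without normalization and -1.07 by the authors' ratios, Mxd1 -0.80 by the authors' ratios, and Mnt -0.72 without normalization and -1.10 by the authors' ratios, where the median gene read -0.78, -0.78 and -1.15. Dusp2 read -0.26, -0.27 and -0.64 under the same settings, and Siglech, 1.15 after loess, read -0.34 by the authors' ratios. With the shift removed the sign also turned, without a call: Myc read -0.16 and Max 0.13 on slide 2, Mlx 0.05 with the polysomal pool in Cy3 alone and 0.10 by the centred authors' ratios, Odc1 0.01 without WT 1 and 2, and Mxd1, 0.03 as reported, was negative in several, down to -0.22 on slide 1.

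Of the 6 genes of the set tested in the ratio, 4 passed with median centring, 5 without normalization and 6 by the authors' ratios, all lower in Lck-/-. Of all genes, 4687 of 8263, 5980 of 8263 and 7451 of 8252 passed under these settings. In the mean of both pools 1 passed with Agilent's processed signals or the mean of all probes (Mnt in both), 1 with dim probes let in (Mxd3), and 3 with slide and dye terms (Max, Mnt and Odc1). With these terms 2217 of all 9073 genes passed. In the polysomal level 1 passed with median centring or without normalization (Mlx, lower in Lck-/-), beside 2266 and 2243 of 10292 genes. On slide 2 alone or with slide and dye terms 1 passed (Mnt), beside 1861 and 1797 of 10292 genes. In the sub-polysomal level 4 of 7 passed with median centring or without normalization, all higher in Lck-/-, beside 3800 and 3526 of 9703 genes. In that pool 1 passed with the mean of all probes, with the replicate block or with exchanged dye swaps. With a single dye orientation, on slide 2 alone, or without both WT 1 and 2, 0 passed. With 1 extract left out the counts were 0 in the ratio, 0 to 1 in the mean and in the polysomal level, and 1 to 2 in the sub-polysomal level.

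Calls over all genes moved more. In the ratio (319 calls) they were 177 with processed signals, 4687 with median centring, 5980 without normalization, 204 without a filter, 36 and 30 with the polysomal pool in Cy5 or Cy3 alone, 188 and 37 on slides 1 and 2, 179 with the replicate block, 41 with exchanged dye swaps, 86 without WT 1 and 2, and 7451 and 716 by the authors' ratios as deposited and centred. In the mean (1849) they were 983 without normalization, 945 and 967 by orientation, 815 and 1141 by slide, and 816 without WT 1 and 2. In the polysomal level (1523) they were 155 and 339 by orientation, 87 on slide 1, 682 with exchanged dye swaps and 275 without WT 1 and 2. In the sub-polysomal level (1865) they were 3800 with median centring, 3526 without normalization, 689 and 487 by orientation, 170 on slide 2, 1115 with the block, 1061 with exchanged dye swaps and 1050 without WT 1 and 2. With 1 extract left out they ran from 103 to 442 in the ratio, 955 to 2258 in the mean, 711 to 2424 in the polysomal and 984 to 1939 in the sub-polysomal level. Fewer arrays enter the fits by orientation or slide, and for the others the cause was not tested.

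Replicate numbers are shared between genotypes, but samples with the same number did not deviate together (r from -0.24 to 0.26 in the ratio and -0.21 to 0.44 in the mean, across genes), and only number 3 correlated best with its own. With the number as a block, Max kept an adjusted p of 0.0448 in the sub-polysomal level and Odc1 had 0.0606. Signal over background limits what can be said of Mycn, Mxd3, Mxd4 and Mxi1.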
